A study of Mus musculus with 18 samples.

Results

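Blood vessels of epididymal white adipose tissue (eWAT) were followed through 10 genes that make up the endothelial surface or signal to it: Pecam1, Cdh5, Kdr, Flt1, Tie1, Tek, Vwf, Emcn, Eng and Vegfa. The genes were taken by symbol, as markers and signals of endothelium. All 10 were found among the 21756 genes with values per library, and all 10 were among the 19012 genes that passed the filter on low values, a mean of at least 10 on the linear scale. RNA was sequenced from eWAT of 5 Control f/f and 5 ParkinAdi mice, 1 library per mouse, to ask what deletion of Parkin, the ubiquitin ligase that marks damaged mitochondria for removal, changes in this tissue. All 10 were male mice on a C57BL/6J background, about 4 to 6 months old, and all were fed a 45% high-fat diet. Control f/f mice were the floxed controls. In ParkinAdi mice the floxed alleles were combined with adiponectin Cre, a driver of adipocytes and not of endothelial cells, so vessel cells are not the cells in which it deletes the gene. In a second experiment, wild-type C57BL/6J males received an AAV8-Control vector in 1 eWAT pad and an AAV8-Nqo1 vector, driven by an adiponectin promoter, in the other, with 4 pads per vector in the labels. These mice started the high-fat diet at 2 months of age, received the virus after 4 weeks of diet, and gave tissue 4 weeks later. The Nqo1 vector always went into the left pad, so vector and side cannot be told apart.

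Endothelial cells line every vessel of a fat pad and must spread with the pad as adipocytes enlarge. Vegfa, made by adipocytes and other cells, binds Kdr to drive growth of new vessels and binds Flt1, which holds much of it back. Angiopoietins act through Tek, with Tie1 as its partner, to settle and stabilise vessels, while Eng is a co-receptor for BMP9 and BMP10. Pecam1 and Cdh5 hold neighbouring endothelial cells together, Emcn coats the surface of capillaries and veins, and Vwf is stored in endothelial cells and released in clotting.

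Endothelial genes are bound by ETS factors at sites with the core GGAA, and promoter sequence is shown here for the ligand gene Vegfa and for Tek and Emcn, the endothelial genes with the largest and the smallest share of their spread between 2 sets of libraries. Each line gives the 250 bases before the start of the gene as RefSeq places it, 5′ to 3′ on the strand of the gene, with each GGAA or its reverse complement TTCC in capitals. The sequences are from RefSeq on GRCm38.p6 and lie at chr17:46032378-46032627 on the minus strand for Vegfa, chr4:94739039-94739288 on the plus strand for Tek and chr3:137340828-137341077 on the plus strand for Emcn. The RefSeq start of Tek is that of GENCODE, from which gene coordinates are given here, while that of Vegfa lies 8 bases upstream of it and that of Emcn 11 bases inside the gene.
Vegfa: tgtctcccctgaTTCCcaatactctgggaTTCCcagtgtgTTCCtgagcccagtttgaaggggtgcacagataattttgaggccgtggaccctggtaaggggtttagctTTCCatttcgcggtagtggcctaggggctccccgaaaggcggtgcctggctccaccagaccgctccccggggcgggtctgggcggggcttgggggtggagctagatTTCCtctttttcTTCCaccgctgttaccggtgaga
Tek: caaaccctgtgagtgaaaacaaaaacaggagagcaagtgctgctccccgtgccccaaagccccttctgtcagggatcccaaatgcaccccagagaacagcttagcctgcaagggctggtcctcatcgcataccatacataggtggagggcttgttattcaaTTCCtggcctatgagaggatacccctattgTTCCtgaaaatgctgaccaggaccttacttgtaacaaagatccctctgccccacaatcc
Emcn: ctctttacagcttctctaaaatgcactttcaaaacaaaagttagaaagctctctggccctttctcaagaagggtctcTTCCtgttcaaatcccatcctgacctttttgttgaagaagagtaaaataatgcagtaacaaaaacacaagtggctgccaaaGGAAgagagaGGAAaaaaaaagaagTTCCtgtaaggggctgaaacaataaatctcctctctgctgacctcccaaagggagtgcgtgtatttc
Counted from the RefSeq start, the Vegfa window held 6 matches, the nearest 23 bases before it, the Emcn window 4, the nearest 67 bases before it, and the Tek window 2, the nearest 59 bases before it. A window was found for 7 of the 10 genes, with that of Tie1 reaching 212 bases into the gene as GENCODE gives it, and all 7 held at least 1 GGAA on either strand, as did 93.4% of the 32851 RefSeq windows of the same length. The median over all windows was 3 matches, and 33.4% of windows held 4 or more. ACGTG is 1 form of the core of the hypoxia response element. It was found on either strand in 0 of the 7 windows and in 16.6% of all windows. The form GCGTG was not counted. GGGCGG, the letters that SP1 binds, was found in 3 of the 7, among them the Vegfa window with 2, and in 32.7% of all windows. These matches are letters in a window, and no binding was measured.

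Before the genotypes were compared, the levels of the 10 genes were set in order per kilobase of exon, since a long gene collects more reads at the same RNA level. In the mean normalized counts that the authors deposited over the 10 libraries, Vegfa was at 1014 per kb, Cdh5 at 884, Pecam1 at 581 and Eng at 515. The 4 genes of lowest level were Tek at 188, Emcn at 150, Flt1 at 119 and Vwf at 117 per kb, with Kdr at 197 and Tie1 at 194 between. The junction genes and the ligand thus stood above the receptors in this tissue, and all 10 genes lay between the 74.0th and 95.8th percentile of mean normalized count of the genes in the table, before division by length.

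The authors' means carry no spread, so the order was also read in each mouse from its regularized log (rlog) value, a normalized count on a log2 scale, less log2 of the exon length in kb. On this scale Cdh5 was above Pecam1 by 0.55 ± 0.11 (SD of the difference, n = 10 mice) and Eng was above Kdr by 1.40 ± 0.22, in 10 of 10 mice each. Pecam1 was above Eng by 0.20 ± 0.11, in 9 of 10 mice. Kdr and Tie1 differed by 0.045 ± 0.23 and Tie1 and Tek by 0.049 ± 0.15, so the order of these 3 receptors was within the spread. Tek and Emcn, with 0.20 ± 0.46, and Flt1 and Vwf, with 0.34 ± 0.46, did not differ beyond it either. Vegfa was above Cdh5 by 0.31 ± 0.54, in 7 of 10 mice, and was below it in mice C1, C3 and P2.

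**Figure D1:**
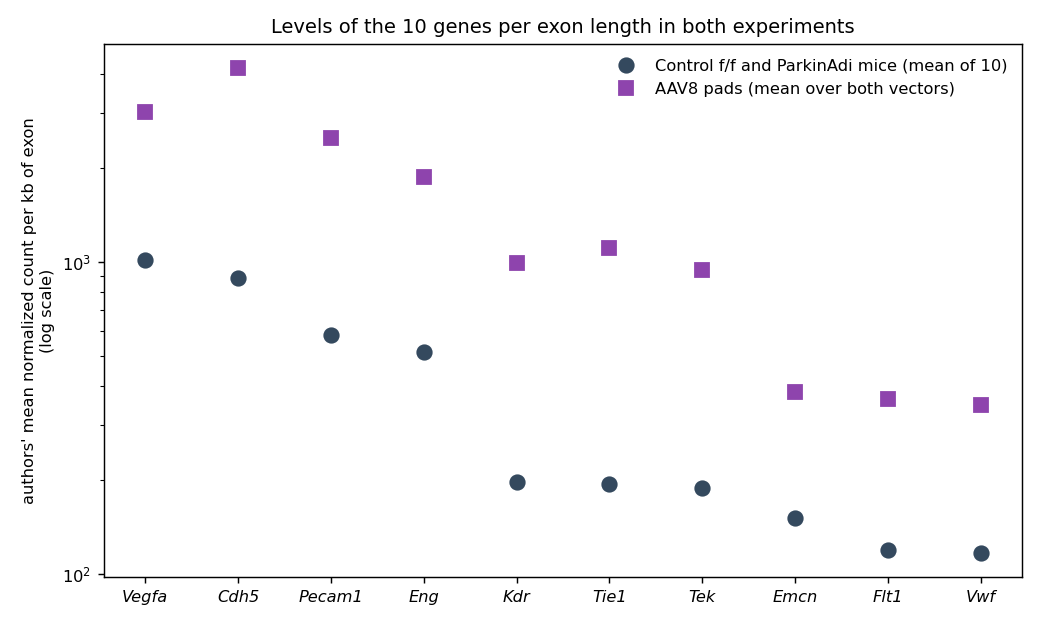
Mean normalized count per kb of exon (log scale) of the 10 genes, as the authors' mean over the 10 Control f/f and ParkinAdi mice (circles) and over the AAV8 pads of both vectors (squares). Vegfa, Cdh5, Pecam1 and Eng are highest and Emcn, Flt1 and Vwf lowest in both experiments, and the vertical gap between circles and squares is not comparable because the tables were normalized separately.

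In the AAV8 experiment only the authors' mean over the pads of both vectors was used, so the effect of Nqo1 on these genes was not analysed here. All 10 genes were found among the 27356 genes of that table. Cdh5 was the highest per kb at 4174, followed by Vegfa at 3023, Pecam1 at 2500 and Eng at 1865. Tie1 was at 1105, Kdr at 989, Tek at 943, Emcn at 382, Flt1 at 364 and Vwf at 348 per kb. The same 4 genes led and the same 3 were lowest in both tables, which come from mice of different genotype.

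The mice are named C1 to C5 for Control f/f and P1 to P5 for ParkinAdi. In the library of P2, RNA of the epididymis, which lies beside the pad, was also present: the summed level of 5 epididymis markers was 8.54 to 10.71 in Control f/f and reached 20.18 in ParkinAdi. The 10 libraries also differed in how high long genes read in them, and were put into 2 sets on this basis. In 6 libraries (C1, C2, C3, P1, P2 and P5) long genes read high, with a Spearman correlation of 0.376 to 0.510 between exon length and the deviation of the library from the mean of all. In the other 4 (C4, C5, P3 and P4) long genes read low, with a correlation of −0.537 to −0.469. Each set held mice of both genotypes, 3 and 3 in the first and 2 and 2 in the second. The sets were defined from the values of all genes, these 10 included, so differences between them are given as a description without a test. What the sets stand for was not tested, and the number of reads per library is unknown.

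Vegfa, the ligand (chr17:46016993-46032369, GRCm38, 4285 bases of exon), had overlapping values in the genotypes. Its rlog values were 11.70, 11.88, 12.12, 12.24 and 12.08 in C1 to C5 and 12.37, 11.82, 12.08, 12.03 and 12.22 in P1 to P5. The groups overlapped, with the highest value in P1 and the lowest in C1. The difference between ParkinAdi and Control f/f was 0.10 ± 0.145 (SE, limma over all genes tested, adjusted p = 0.99995), with a 95% interval from −0.22 to 0.42. Within the 6 libraries where long genes read high the difference was 0.24, and within the other 4 it was −0.11.

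The VEGF receptors Kdr and Flt1 followed the library set and not the genotype. Kdr (chr5:75932827-75978458, 9030 bases of exon) was at 11.22, 10.68, 10.98, 10.31 and 10.02 in C1 to C5 and at 10.79, 11.05, 10.22, 10.36 and 11.08 in P1 to P5. Flt1 (chr5:147561604-147726011, 13504 bases of exon) was at 10.93, 10.40, 10.95, 10.16 and 10.14 in the controls and at 10.58, 11.04, 10.14, 9.96 and 10.93 in ParkinAdi. In both genes C4, C5, P3 and P4 were the 4 lowest of the 10 mice, and the genotypes overlapped over nearly their whole range. In bulk tissue a lower value of an endothelial gene can come from fewer endothelial cells or from less RNA in each, and these cannot be told apart. In these 4 libraries long genes in general also read low. With the trend with length removed, the difference between the sets was −0.22 for Kdr and −0.025 for Flt1, and the sets overlapped. The part of this trend in the lower values was not tested. The genotype difference was 0.059 ± 0.254 for Kdr, with an interval from −0.50 to 0.62, and 0.014 ± 0.253 for Flt1, with an interval from −0.54 to 0.57 (SE, limma adjusted p = 0.99995 for each).

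The angiopoietin receptor Tek and its partner Tie1 lie on the same chromosome and varied in the same way. Tek (chr4:94739289-94874976, 4712 bases of exon) was at 10.21, 9.79, 10.04, 9.16 and 9.15 in C1 to C5 and at 9.93, 9.85, 9.02, 9.13 and 10.10 in P1 to P5. Tie1 (chr4:118471191-118490061, 4917 bases of exon) was at 10.29, 9.92, 10.13, 9.41 and 9.52 and at 9.89, 10.07, 9.11, 8.95 and 10.21 in the same order. The 4 low mice were again C4, C5, P3 and P4, and for Tie1 P3 and P4 lay below C4 and C5. The genotype difference was −0.064 ± 0.281 for Tek, with an interval from −0.68 to 0.56, and −0.21 ± 0.278 for Tie1, with an interval from −0.82 to 0.40 (SE, limma adjusted p = 0.99995 for each). For Tie1 it was −0.057 within the 6 libraries and −0.44 within the 4.

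Eng (chr2:32646595-32682669, 4048 bases of exon), the co-receptor for BMP9 and BMP10, was at 11.25, 10.95, 11.59, 10.62 and 10.66 in C1 to C5 and at 11.01, 11.09, 10.34, 10.44 and 11.17 in P1 to P5. The highest value was in control mouse C3, and P3 and P4 were the lowest. The difference of −0.20 ± 0.232 was within the spread between mice (SE, limma adjusted p = 0.99995, interval from −0.71 to 0.31), and it had the same sign within both sets, at −0.17 and −0.25.

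Pecam1 and Cdh5, the adhesion molecules by which endothelial cells are usually recognised, were the endothelial genes of highest level and did not differ beyond the spread either. Pecam1 (chr11:106654217-106750628, 6228 bases of exon) was at 12.15, 11.79, 12.14, 11.42 and 11.51 in C1 to C5 and at 11.83, 11.91, 11.29, 11.22 and 12.08 in P1 to P5. Cdh5 (chr8:104101625-104144511, 4203 bases of exon) was at 12.24, 11.77, 12.16, 11.40 and 11.40 and at 11.85, 12.08, 11.16, 11.01 and 12.14. Both genes ranked the libraries alike, with P3 and P4 lowest and C4 and C5 next. The difference was −0.14 ± 0.216 for Pecam1, with an interval from −0.61 to 0.34, and −0.15 ± 0.269 for Cdh5, with an interval from −0.74 to 0.45 (SE, limma adjusted p = 0.99995 for each).

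Emcn and Vwf, both features of veins, were at opposite ends of the range of spread. Emcn (chr3:137341067-137432185, 5409 bases of exon), a mucin-like coat protein, was at 9.57, 9.52, 10.11, 9.48 and 9.54 in C1 to C5 and at 9.61, 9.57, 9.66, 9.70 and 9.66 in P1 to P5. Apart from C3, its values lay within about the same narrow band in every mouse, and the 5 ParkinAdi mice had an SD of 0.0523. Vwf (chr6:125546774-125686679, 16064 bases of exon), the clotting protein, was at 11.23, 10.63, 11.47, 9.58 and 9.55 and at 10.79, 10.96, 9.73, 9.16 and 11.17, with an SD of 0.901 in the controls. For Vwf the 6 mice at 10.63 or above and the 4 mice at 9.73 or below formed separate groups, each with mice of both genotypes. The genotype difference was −0.0054 ± 0.135 for Emcn, with an interval from −0.30 to 0.29, and −0.13 ± 0.487 for Vwf, with an interval from −1.20 to 0.94 (SE, limma adjusted p = 0.99995 for each).

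**Figure D2:**
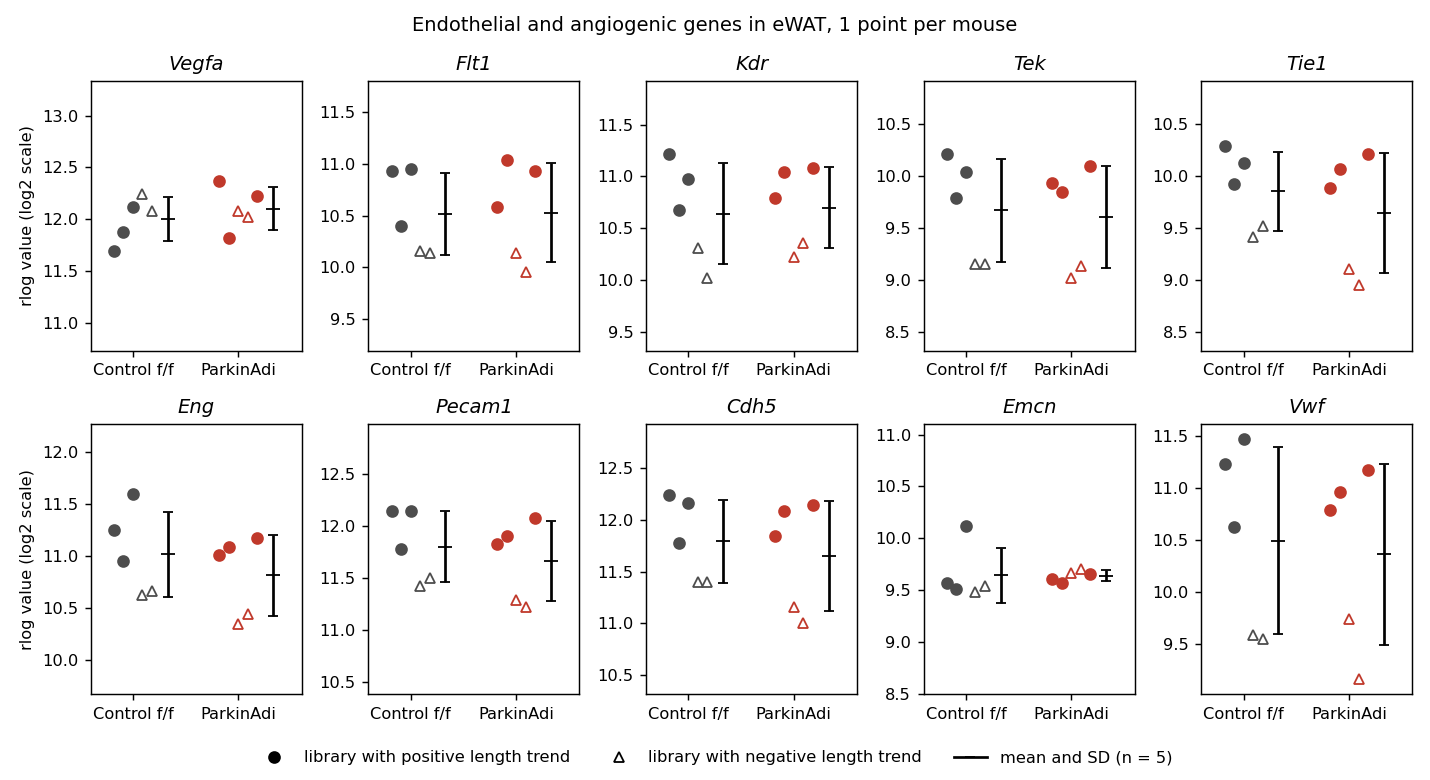
rlog value (log2 scale) of each of the 10 genes, 1 point per mouse, with Control f/f mice at the left and ParkinAdi mice at the right of each panel and the mean and SD (n = 5) beside them. Filled circles are the 6 libraries where long genes read high and open triangles the 4 where they read low, which are the lowest in 8 of the 10 panels and not in those of Vegfa and Emcn. Each panel has its own range of values.

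In the comparison of the genotypes no difference in these genes passed the test. By limma over all genes, 0 of the 10 genes had an adjusted p under 0.05, beside 0% of all genes tested, and the smallest adjusted p over all genes was 0.620. At an unadjusted p under 0.05, 0 of the 10 were called, beside 5.02% of all genes. In 0 of the 10 genes did the values of the genotypes not overlap, beside 1.06% of all genes. The differences were above 0 in 3 genes and below 0 in 7, with a median of −0.097. Over all genes 10811 were above 0 and 8201 below, with a median of 0.030. The mean rlog value of the 9 endothelial genes, without Vegfa, was 10.60 ± 0.435 in Control f/f and 10.51 ± 0.447 in ParkinAdi (SD, n = 5 mice each).

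A term for the library set narrowed the errors without moving the differences, since both sets held as many mice of each genotype. In this fit, which was added after the values were seen, the intervals were −0.45 to 0.029 for Tie1 (unadjusted p = 0.0788, adjusted p = 0.478, limma) and −0.44 to 0.035 for Eng (unadjusted p = 0.0872, adjusted p = 0.493, limma). The interval was −0.33 to 0.064 for Pecam1 and −0.39 to 0.094 for Cdh5. Again 0 of the 10 had an unadjusted p under 0.05, beside 11.8% of all genes in the same fit. Without mouse P2, whose library held epididymal transcripts, the differences were between −0.32 for Tie1 and 0.17 for Vegfa. In this fit 8 of 10 were below 0 and 0 of 10 had an unadjusted p under 0.05, and the shares over all genes were not counted. A p that misses the threshold does not show that the genotypes were alike.

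**Figure D3:**
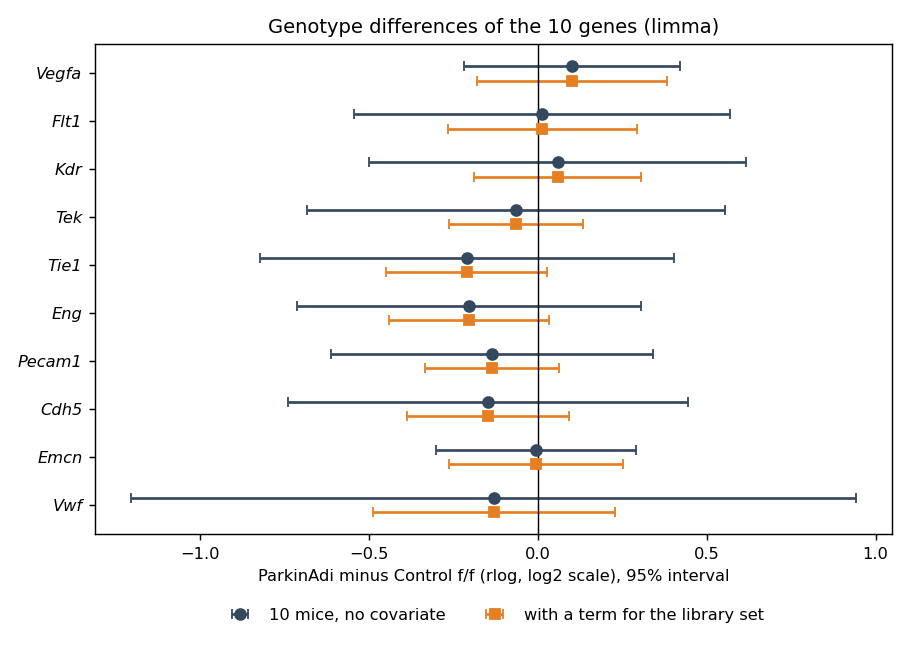
Difference of ParkinAdi minus Control f/f in rlog value (log2 scale) for the 10 genes with its 95% interval from limma, over 10 mice without a covariate (circles) and with a term for the library set (squares). All 20 intervals span 0, and those with the term are narrower for all 10 genes.

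Most of the endothelial genes differed between the library sets. In 8 of the 10 genes the 4 libraries where long genes read low lay below all 6 others, beside 22.7% of all genes tested that were lower in this way, 23.7% that were higher and thus 46.4% in either direction. Vwf was lower by a mean of 1.54 in these 4 libraries, Tek by 0.87, Tie1 by 0.84, Cdh5 by 0.80 and Kdr by 0.74 on the log2 scale. Flt1 was lower by 0.71, Eng by 0.66 and Pecam1 by 0.62. In Vegfa, with a mean difference of 0.089, and in Emcn, with −0.076, the sets overlapped. Of the squared spread between mice, 75.6% to 92.8% lay between the library sets in the 8 genes, 4.92% in Vegfa and 4.77% in Emcn, beside a median of 55.1% over all genes. Between the genotypes it was at most 7.50% in the 10 genes, beside a median of 3.88%. Markers of other cells differed between the sets too. The summed level of 10 adipocyte markers was higher in the 4 libraries, at 20.11 to 20.64 against 19.08 to 20.08 in the 6, and the median set difference of the markers was 0.50, and 0.40 with the length trend removed. The summed level of 4 platelet markers was also higher in the 4, at 10.38 to 10.997 against 9.48 to 10.06. The median set difference of the platelet markers was 0.58, and 0.10 with the length trend removed. For 11 mural markers it was −0.53, and −0.28 with the trend removed. For 10 macrophage markers the values were 0.39 and 0.15, and for 21 endothelial markers −0.49 and −0.22. The part of these cells in the set differences of the 10 genes was not tested.

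The genes differed in how far this went beyond other genes of their length. All genes were put into 10 equal groups by exon length, and the set difference was read against the genes of the same group. Flt1 and Kdr, in the group of longest genes with a median of −0.69, stood at percentiles 47.8 and 44.8 of it and so differed between the sets about as much as other genes of their length. Pecam1 was at percentile 26.5. Eng at 13.0, Tie1 at 11.1, Tek at 9.63, Cdh5 at 8.57 and Vwf at 2.16 were in the lower part of their groups, while Vegfa at 64.8 and Emcn at 70.9 were above the middle of theirs. When the trend with length was removed from each library, the set difference was −0.025 for Flt1 and −0.22 for Kdr, with sets that overlapped. It remained −0.80 for Vwf, −0.70 for Tek and Cdh5, −0.64 for Tie1, −0.59 for Eng and −0.29 for Pecam1. In these 6 genes the 4 libraries still lay below all 6 others, beside 14.9% of all genes that were lower and 33% in either direction after the same step. For the mean of the 9 genes the 2 sets were at 10.60 to 11.06 and 9.99 to 10.17 before it, and at 10.53 to 10.97 and 10.23 to 10.39 after it. Removing the trend left the genotype differences of the 10 genes between −0.19 and 0.12.

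**Figure D4:**
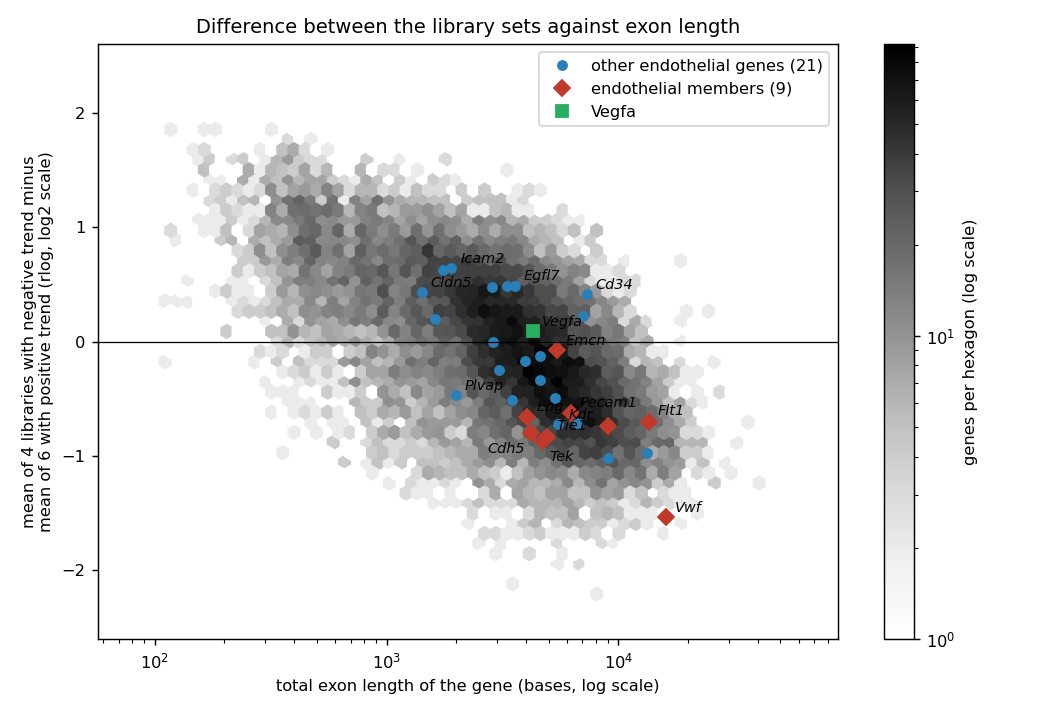
Mean rlog value of the 4 libraries where long genes read low minus that of the 6 where they read high (log2 scale) against total exon length in bases (log scale), with all 19012 genes tested as grey hexagons, the 9 endothelial genes of interest as diamonds, Vegfa as a square and 21 other endothelial genes as circles. The grey cloud falls with length, the trend by which the sets were defined. Vwf lies at the lower edge of the cloud at −1.54, and short endothelial genes such as Icam2 and Cldn5 lie above 0.

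Other genes of endothelial cells also varied between the sets with their length. With 21 more genes from lists of endothelial markers and of endothelial junctions and surface, 30 endothelial genes were examined. Of the 10 shorter than 3500 bases, 4 were higher in the 4 libraries without overlap: Icam2 by 0.64, Ecscr by 0.63, Myct1 by 0.48 and Cldn5, the claudin of endothelial tight junctions, by 0.43. Plvap, a protein of the diaphragms of capillary pores, with −0.47, and Erg, an ETS factor, with −0.51, were lower in them although short. Of the 20 longer genes 12 were lower and 2, Egfl7 with 0.49 and Cd34 with 0.41, were higher. Over all genes tested, 22.7% were lower without overlap and 23.7% were higher. By groups of exon length, 2.94% to 9.15% were lower below 3493 bases and 15.7% to 65.7% from there up. The share that was higher was not counted by group. The median set difference of all genes was 0.34 in the group that holds Icam2, Ecscr and Cldn5 and 0.038 in that of Myct1. The sets were defined by the trend with length, so a negative correlation of set difference and exon length over all genes was fixed in advance. The Spearman correlation was −0.60 over the 21 genes other than the 9 and −0.66 over all 30, beside −0.59 over all genes tested. It was −0.21 over the 30 after the trend was removed, and genes of the same libraries are not independent points. By genotype, 10 of the 30 were above 0 and 20 below, between −0.31 for Cd93 and 0.17 for Tspan7, with a median of −0.042.

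Within the library sets most of the endothelial genes still varied together from mouse to mouse. After the mean of its set was taken from each value, the Pearson correlation over the 10 libraries was 0.94 for Tie1 and Cdh5, 0.93 for Pecam1 and Cdh5 and 0.89 for Tie1 and Pecam1. Over the 28 pairs among the 8 genes without Vegfa and Emcn it ran from 0.22 to 0.94, with a median of 0.65. Emcn had a median of 0.22 with the 8, between −0.12 with Tie1 and 0.64 with Eng, and Vegfa had a median of −0.044 with the other 9, between −0.29 and 0.22. The points share libraries, and these are descriptions over few mice. Pairs of other genes were not correlated in this way, so whether this is particular to endothelial genes was not tested. The trend with length also varied within a set, from 0.376 to 0.510 in the 6 libraries. Its part in these correlations was not tested. The genes outside the 10 whose pattern was most like the mean of the 9 endothelial genes were Synpo (r = 0.944), Iqsec2 (0.921), Snai1 (0.918), Nova2 (0.917), Sh2b3 (0.909), Dpp8 (0.907), Arhgef15 (0.895) and Pkn3 (0.892), among the 19012 genes tested over 10 libraries.

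The other genes of these pathways were read from lists, and in every list 0 genes passed the adjusted test in limma. At an unadjusted p under 0.05, 1.46% of all genes tested were higher and 3.56% lower in ParkinAdi. Without regard to p, 10811 of the 19012 genes tested were above 0 and 8201 below. Among 5 ligands of the VEGF family, 3 differences were above 0 and 2 below, and none was called. Vegfc, the main ligand for lymphatic vessels, had a difference of −0.41 ± 0.196 (SE, limma unadjusted p = 0.0586). Its values were 8.26, 8.51, 7.81, 7.43 and 8.27 in C1 to C5 and 7.66, 7.50, 7.64, 7.67 and 7.75 in P1 to P5, and control mouse C4 lay below all ParkinAdi mice. Vegfd differed by −0.30 ± 0.172 and Pgf, the placental growth factor that binds Flt1, by 0.45 ± 0.307. Among 5 VEGF receptors and co-receptors, 2 were above 0 and 3 below, with Nrp1, which presents VEGF to Kdr, at −0.14 ± 0.194. All 5, Kdr and Flt1 among them, were lower without overlap in the 4 libraries where long genes read low, beside 22.7% of all genes. In the group by exon length that holds Flt4 it was 51.6%, and in the group of longest genes, which holds the others, 65.7%. With the length trend removed, the sets overlapped in 4 of the 5 and stayed apart in Flt4, the receptor for Vegfc, at −0.96, beside 14.9% of all genes.

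In the angiopoietin and TIE pathway, 4 of 9 genes were above 0 and 5 below, and 1 had an unadjusted p under 0.05. That gene was Angpt4, a ligand of Tek, with a difference of 0.65 ± 0.290 (SE, limma unadjusted p = 0.0471). Its values were low in every mouse, at 6.03, 6.29, 6.40, 5.18 and 5.32 in C1 to C5 and 6.87, 6.41, 5.93, 6.35 and 6.91 in P1 to P5. Angptl4, an inhibitor of lipoprotein lipase that is made in fat, differed by −0.38 ± 0.204. Of 9 genes of BMP and TGF-beta signalling in endothelium, the pathway of Eng, 3 were above 0 and 6 below, and Smad6, which restrains BMP signals, had −0.40 ± 0.158 (SE, limma unadjusted p = 0.0269). Of 10 Notch genes that act in vessels 6 were above 0 and 4 below, with Hes1 at 0.33 ± 0.235, and none was called.

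Lists that describe kinds of endothelium gave differences of either sign and no calls. Of 17 transcription factors of endothelial cells, 7 were above 0 and 10 below, with Sox7 at 0.32 ± 0.307 and Lyl1 at −0.24 ± 0.165. Of 22 junction and surface genes, which include Pecam1, Cdh5, Emcn and Eng, 7 were above 0 and 15 below, with a median of −0.031. Of 9 genes by which capillaries and adipocytes handle lipid 2 were above 0 and 7 below, with the fatty acid binding protein Fabp5 at −0.44 ± 0.309. Of 8 arterial genes 4 were above 0 and 4 below, with the gap junction gene Gja5 at −0.30 ± 0.159. Of 8 genes of venous endothelium and endothelial activation, Vwf among them, 1 was above 0 and 7 were below. Of 10 genes of sprouting and tip cells 1 was above 0 and 9 were below. The lowest p among the sprouting and tip cell genes was that of Cxcr4, the receptor for CXCL12, at −0.38 ± 0.180 (SE, limma unadjusted p = 0.0594). Aplnr, the apelin receptor, which was on both of these lists, had −0.40 ± 0.190. Of 9 genes of nitric oxide and vessel tone 5 were above 0 and 4 below, with Nos3, the endothelial nitric oxide synthase, at −0.22 ± 0.136 and Thbd, the thrombin receptor thrombomodulin, at 0.51 ± 0.245.

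Among the lists of vessel pathways and kinds of endothelium, the smallest p were found in inhibitors of angiogenesis and in growth factors that are not specific to endothelium. Serpinf1, an inhibitor of angiogenesis that adipocytes secrete, was at 12.53, 12.90, 12.48, 12.94 and 13.23 in C1 to C5 and at 12.39, 11.85, 12.44, 12.30 and 12.22 in P1 to P5. The genotypes did not overlap, and the difference was −0.57 ± 0.175 (SE, limma unadjusted p = 0.00753). Spry4, which dampens growth factor signals, had −0.45 ± 0.195 (SE, limma unadjusted p = 0.0436), and these were the 2 of 13 inhibitors of angiogenesis with an unadjusted p under 0.05, with 6 above 0 and 7 below. Ccn1, a matrix protein that promotes angiogenesis, was at 10.14, 10.35, 9.91, 10.02 and 10.27 in the controls and at 9.73, 9.66, 9.47, 9.56 and 9.92 in ParkinAdi, where only P5 reached the lowest control. Its difference was −0.47 ± 0.128 (SE, limma unadjusted p = 0.00354), and that of Ptn, the growth factor pleiotrophin, was 0.87 ± 0.292 (SE, limma unadjusted p = 0.0125), among 12 other growth factors with 7 above 0 and 5 below. Of 17 genes of hypoxia signalling, which are the HIF factors, their regulators and their targets, 7 were above 0 and 10 below, with Egln3 at 0.37 ± 0.191 and Adm at −0.25 ± 0.127, and none was called. None of the genes named from the lists passed the adjusted threshold.

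Markers of other cells were read beside these values. All 8 mesothelial markers were above 0, with a median of 1.04, and their summed level was 9.94 to 11.99 in Control f/f and 11.37 to 13.03 in ParkinAdi. All 10 macrophage markers were below 0, with a median of −0.46, and their summed level was 15.02 to 15.70 and 14.44 to 15.57. Of 10 adipocyte markers 6 were above 0 and 4 below. Of 11 markers of mural cells, which wrap the vessels, 8 were above 0 and 3 below, with a median of 0.16. Tagln was at 0.45 ± 0.318 and Pdgfrb at −0.26 ± 0.241. Without mouse P2, whose library held epididymal transcripts, the median of the mural markers was −0.10 and Tagln was at 0.20. Of 4 platelet markers, which bear on Vwf because platelets also carry it, 3 were above 0 and 1 below, and of 5 progenitor markers 3 were above 0 and 2 below. All 21 endothelial markers, 9 of them among the genes above, were detected, the lowest being Erg with a mean of 8.47, and 4 were above 0 and 17 below, with a median of −0.058. At an unadjusted p under 0.05 in limma, 7 mesothelial markers were higher, and 4 macrophage markers and 1 adipocyte marker were lower. Over all genes the shares were 1.46% higher and 3.56% lower. Of the mural, platelet, progenitor and endothelial markers 0 were called, and 0 of all these markers passed the adjusted threshold. The part of these other cells in the values of the 10 genes was not tested.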

How the data were processed

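RNA-seq of eWAT was used from 5 Control f/f and 5 ParkinAdi mice and, as means only, from 4 AAV8-Control and 4 AAV8-Nqo1 pads. The authors used frozen tissue, Trizol and RNeasy columns and an mRNA kit, sequenced the libraries in 2 pools, aligned reads to GRCm38, counted them with Rsubread over annotation version 97 and tested with DESeq2 1.30.0. The strand setting of the counting and the pool of each library are not given in the sources used. Per Parkin library, the authors deposited values after DESeq2's regularized log, in log2 units. They also deposited a mean normalized count for each gene over all libraries of an experiment, a signal without a fixed total. The remaining columns hold the authors' own fold changes, statistics and p-values and were not used. Counts per library were not used, so depth is unknown.

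Genes whose mean reached log2 of 10 were fitted with limma 3.58.1 in R 4.3.3, with an intensity trend and without covariates, and p-values were adjusted by Benjamini-Hochberg over all 19012, with a threshold of 0.05. The script was tested on simulated data. The rlog scale shrinks differences, most for genes of low counts. Mice were numbered in the order of the deposited columns, whose names give the genotype. P-values measure the spread between these mice. Exon lengths (all exons of a gene merged) and coordinates are from GENCODE M21. Library sets were given by the sign of each library's Spearman correlation of deviation with exon length, and the length trend was removed by lowess with a span of 0.3. Summed marker levels are log2 of the sum of linear values.

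The genes and lists were chosen with earlier results of these data known. Named genes were all 10, up to 3 genes of each list with the smallest p (not all are printed), and the 8 most alike in pattern. Genes named for their difference between library sets or for the ends of a range were picked with their values in view. Alternatives tried were other filters, normalizations and variance models, the library sets alone or as a term, an unadjusted p, and each mouse left out. Removal of the length trend was chosen after seeing the data. Python 3.11.15 and pandas 2.3.3 were used for tables. The level of the targeted gene is not reported here.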

Additional observations from a re-analysis of the deposited data

Results flagged for a closer look

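Emcn in Control f/f mouse C3 stood apart from the other control mice. Its rlog value was 10.114, the nearest control was at 9.57, and the gap was 0.863 of the whole range of the 5 controls. The other 9 endothelial and angiogenic genes and the other genotype gave no such value in 20 groups tested, and chance gives about 1 in 20. Without C3 the difference of Emcn between the genotypes was 0.11 in place of −0.0054.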

How the results depend on the processing

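Under every alternative 0 of the 10 genes had an adjusted p under 0.05 in either direction, while 33 of the 200 alternative differences of these genes changed sign. With limma library weights, which gave mouse C2 a weight of 12.4 and the others 0.302 to 2.54, Tek was at 0.091, Eng at 0.0098, Pecam1 at 0.043, Cdh5 at 0.079, Emcn at 0.064, Vwf at 0.12 and Vegfa at 0.32 (limma unadjusted p = 0.00994, adjusted p = 0.127). In the 4 libraries with a negative length trend alone, Vegfa was at −0.11, Flt1 at −0.10, Emcn at 0.17, Tie1 at −0.44 (limma unadjusted p = 0.0104, adjusted p = 0.239) and Cdh5 at −0.32 (limma unadjusted p = 0.0239, adjusted p = 0.269). In the other alternatives 0 of the 10 genes had an unadjusted p under 0.05. The share over all genes at this p was counted only for the fit of all mice without a covariate and for that with the set term. In the 6 with a positive trend alone, Lyve1 was at −0.15. Flt1 was at −0.0028 after median centring and at −0.0023 with the length trend removed, where Emcn was at 0.013. With each mouse left out in turn the difference ran from −0.11 to 0.16 for Flt1, from −0.096 to 0.20 for Kdr, from −0.19 to 0.082 for Tek, from −0.27 to 0.014 for Cdh5, from −0.045 to 0.11 for Emcn and from −0.37 to 0.17 for Vwf. It kept its sign from 0.025 without C1 to 0.17 without P2 for Vegfa, from −0.35 without P5 to −0.035 without P4 for Tie1, from −0.30 without C4 to −0.058 without C3 for Eng and from −0.24 without P5 to −0.024 without P4 for Pecam1. Over all genes, limma called 0 higher and 0 lower. Library weights called 105 higher and 438 lower, among them Vegfc at −0.73, Serpinf1 at −0.58, Ccn1 at −0.53, Ptn at 0.82 and Thbd at 0.93. The 4 libraries with a negative trend alone called 6 higher and 17 lower, an unadjusted p under 0.05 called 278 and 677, and the same p with the set term, added after the data were seen, 842 and 1394. Leaving out a mouse called 0 to 0 higher and 0 to 11 lower, the 11 without C3. The cause was not tested. No paired analysis was possible because the paired pads of the AAV8 mice were used only as a mean over both vectors. With 5 mice per genotype and unknown depth, the intervals given with each gene are the limit.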

Other observations

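Markers of lymphatic vessels, a separate kind of endothelium, also differed between the library sets. Of 6 such markers, 4 were lower without overlap in the 4 libraries where long genes read low: Reln with a difference of −1.85, Prox1, the transcription factor that sets lymphatic identity, with −1.67, Mmrn1 with −1.59 and Flt4, the receptor for Vegfc, with −1.44. Over all genes 22.7% were lower in this way. In the groups by exon length it was 65.7% in that of Reln, 51.6% in that of Prox1 and Flt4 and 36.8% in that of Mmrn1. Ccl21a was at −0.92 and Lyve1, a hyaluronan receptor that macrophages also carry, at −0.20. By genotype 4 of the 6 were above 0 and 2 below, with a median of 0.069, and 0 had an unadjusted p under 0.05 in limma. The median set difference of the 6 was −1.51 as deposited and −1.08 with the length trend removed, beside −0.49 and −0.22 for the 21 endothelial markers and −0.047 and −0.032 over all genes.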
